A study of Mus musculus with 6 samples.

Results

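Tlr2, the receptor for bacterial lipoproteins, and the genes that carry its signal were followed in newly made RNA of mouse fibroblasts that lose ASH2L. The members were 10 of the 55401 genes listed, picked by symbol: the receptors Tlr1, Tlr2, Tlr3, Tlr4 and Tlr6, the adaptors Myd88 and Tirap, the kinases Irak1 and Irak4, and the ubiquitin ligase Traf6. Tlr2 was itself chosen by its decrease after 8 h of degradation, so its values are a description and carry no test, whereas the other members were chosen by their place in the pathway. Of the 10 members, 9 were detected and tested, while Tlr1 was at 0 in every library.

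The cells were iMEF, immortalised mouse embryo fibroblasts, whose own Ash2l gene had been inactivated by removing an exon with 4-hydroxytamoxifen, with the human protein supplied by lentivirus as the fusion FKBP-HA2-ASH2L. The lines were clones obtained by limiting dilution, and every group, the untreated one included, carried the deletion and the tagged protein. The 3 conditions, with 2 samples each, were untreated cells, cells after 4 h of dTAG, and cells after 8 h of dTAG, a compound that binds the FKBP tag and sends the fusion protein to the proteasome. Cells took up a clickable nucleoside, and the labelled RNA was captured and sequenced, so that the values report mostly transcripts made around each time.

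Toll-like receptors recognise conserved microbial molecules. TLR2 pairs with TLR1 or TLR6 at the cell surface, TLR4 senses lipopolysaccharide, and TLR3 sits in endosomes, binds double-stranded RNA and signals through TRIF instead of MyD88. The other receptors named here recruit MyD88, for TLR2 and TLR4 with the help of TIRAP, and MyD88 assembles IRAK4 and IRAK1, which activate TRAF6 and, through it, NF-kB and MAP kinases. Fibroblasts use this route to make chemokines and IL-6. ASH2L is a core subunit of the KMT2 methyltransferases, which place methyl groups on lysine 4 of histone H3, with the trimethylated form concentrated at CpG-rich promoters.

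The promoters shown are those of Tlr2, with the widest difference at 8 h against untreated cells, and Irak1, with the smallest standard error. The 250 bases upstream of their RefSeq starts (build GRCm38.p6) are printed with every CG dinucleotide in capitals. Tlr2 lies on the minus strand, with this stretch at chr3:83841609-83841858, and Irak1 lies on the minus strand, with its stretch at chrX:74023919-74024168. RefSeq sets the start of Tlr2 further in than the GENCODE gene used below, so much of its stretch, the end nearest the start included, lies inside that gene, while the stretch of Irak1 lies outside its gene.
Tlr2: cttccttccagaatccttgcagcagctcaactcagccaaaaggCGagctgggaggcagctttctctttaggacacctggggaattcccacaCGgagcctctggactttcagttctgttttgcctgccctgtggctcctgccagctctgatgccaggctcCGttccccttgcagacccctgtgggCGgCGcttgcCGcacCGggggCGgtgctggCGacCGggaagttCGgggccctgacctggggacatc
Irak1: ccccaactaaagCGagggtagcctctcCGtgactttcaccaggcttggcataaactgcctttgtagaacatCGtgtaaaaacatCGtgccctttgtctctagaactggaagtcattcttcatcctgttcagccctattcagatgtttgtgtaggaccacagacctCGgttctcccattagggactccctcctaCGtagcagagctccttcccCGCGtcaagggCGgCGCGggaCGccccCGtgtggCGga
The Tlr2 sequence held 11 CG dinucleotides, most of them in the part nearest the RefSeq start, and the Irak1 sequence held 14. The median over 32851 upstream sequences was 6, and 64.4% of them held fewer than Tlr2 and 70.6% fewer than Irak1. Among the other members with an entry the number was 17 in Tirap, 14 in Irak4, 13 in Traf6, 9 in Myd88, 6 in Tlr3 and Tlr6, and 1 in Tlr1. The GC box letters GGGCGG, searched on both strands, occurred 2 times upstream of Tlr2 and in 32.7% of all such sequences. They also occurred 2 times upstream of Traf6 and 1 time each upstream of Myd88, Irak1 and Irak4. Tlr1, Tlr3, Tlr6 and Tirap had 0. This is a match of letters and not a mapped binding site.

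The deposited tables give 1 mean per gene over the 4 libraries of a comparison, and the value of each library was recovered from those means as a whole number divided by a size factor (a normalised value). Within a group the libraries are called A and B, names that carry no replicate number. In unscaled numbers over the genes recovered, the libraries summed to between 6661880 (untreated B) and 20530318 (dTAG 8 h A), and the part of depth in the members' differences was not tested. Agreement between libraries was loose for genes of the size of most members. Among 5566 genes with a mean of 50 to 500, the median ratio between the 2 libraries of a group was 1.41 to 1.43 in the 3 groups. The means of Tlr6 (39.2), Myd88 (780) and Irak1 (2159) lay outside this range. The correlation of libraries was 0.851 to 0.852 within groups and 0.848 to 0.856 between groups, so the libraries did not separate by treatment. Over 15110 tested genes, limma called 0 genes at an adjusted p below 0.05 (Benjamini-Hochberg) in any of the 3 contrasts, which is 0.0% each. At an unadjusted p below 0.05 there were 666 genes at 4 h (4.41%), 769 at 8 h (5.09%) and 673 between 8 h and 4 h (4.45%). Whether replicate samples were grown as separate cultures is not stated, and the p-values thus cover sample-to-sample spread that may be only technical.

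The fibroblast markers were present, with Col1a1 at 7898 to 9383 and Pdgfrb at 2572 to 2935 over the 6 libraries, and 7 of 10 markers at a mean of at least 10. The remaining 3 (Col3a1, Vim and Fn1) were too abundant for a single solution and have no value per library here. All 10 leukocyte markers also had a mean of at least 10, with Lyz2 at 1363 to 2019, while the defining Ptprc lay between 0.0 and 45.8 and Itgam between 0.0 and 77.0. The 10 leukocyte markers summed to 1959 to 2513 at 4 h and 2211 to 2760 at 8 h, against 2160 to 2288 in untreated cells. Endothelial markers were present too, with Pecam1 at 5787 to 7063, Cdh5 at 2771 to 3225, Tek at 188 to 460 and Kdr at 73.0 to 209. The 4 of them with values summed to 9729 to 10514 at 4 h and 9873 to 10357 at 8 h, against 8980 to 9556 in untreated cells. Of the epithelial markers, Krt18 lay between 399 and 708, Epcam between 236 and 399 and Cdh1 between 172 and 324. Krt8 had only 32.7 to 104 and Cldn4 only 5.52 to 46.3. The markers thus did not single out the fibroblast label. The lines were clones obtained by limiting dilution, and whether these marker values came from the clones themselves or from other cells was not tested. The part of other cell types in the members' values was not tested either. In such bulk samples, fewer cells of a type and less RNA per cell cannot be told apart.

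At 8 h against untreated cells, the contrast that chose it, Tlr2 had the widest difference of the members. Its transcripts, from chromosome 3 at 83836272 to 83841767 on the minus strand (mm10), had normalised values of 179 and 339 in untreated cells, 73.8 and 151 after 4 h, and 41.9 and 29.8 after 8 h of dTAG. The groups did not overlap and followed the order of time, with both libraries at 8 h below both at 4 h, and both at 4 h below both untreated ones. The whole numbers behind these values were small, 136 and 182 in untreated cells, 95 and 134 at 4 h, and 76 and 38 at 8 h. Group means were 259 ± 114 in untreated cells, 113 ± 54.8 at 4 h and 35.9 ± 8.55 at 8 h (SD, n = 2 each). Within a group the libraries differed 1.9-fold in untreated cells, 2.05-fold at 4 h and 1.41-fold at 8 h.

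On the log2(value + 1) scale, Tlr2 differed by -2.76 at 8 h against untreated cells (SE 0.69), a 6.8-fold lower level. The difference was -1.21 at 4 h against untreated cells (SE 0.69) and -1.55 at 8 h against 4 h (SE 0.69). These 3 contrasts share libraries with the one that chose the gene and are given without a test, but Tlr2 was not among the genes called, since none was. Counted from the lowest, Tlr2 stood at place 5 of 9843 genes with a mean of at least 100 at 8 h, at place 75 at 4 h and at place 31 between 8 h and 4 h. Of all tested genes, 154 (1.02%) had the same full order of 8 h below 4 h below untreated in every library. Both 8 h libraries were below both untreated ones in 2477 (16.4%), the part of the order that the choice of Tlr2 favoured. Neither its places nor its order is thus evidence of a change.

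**Figure D1:**
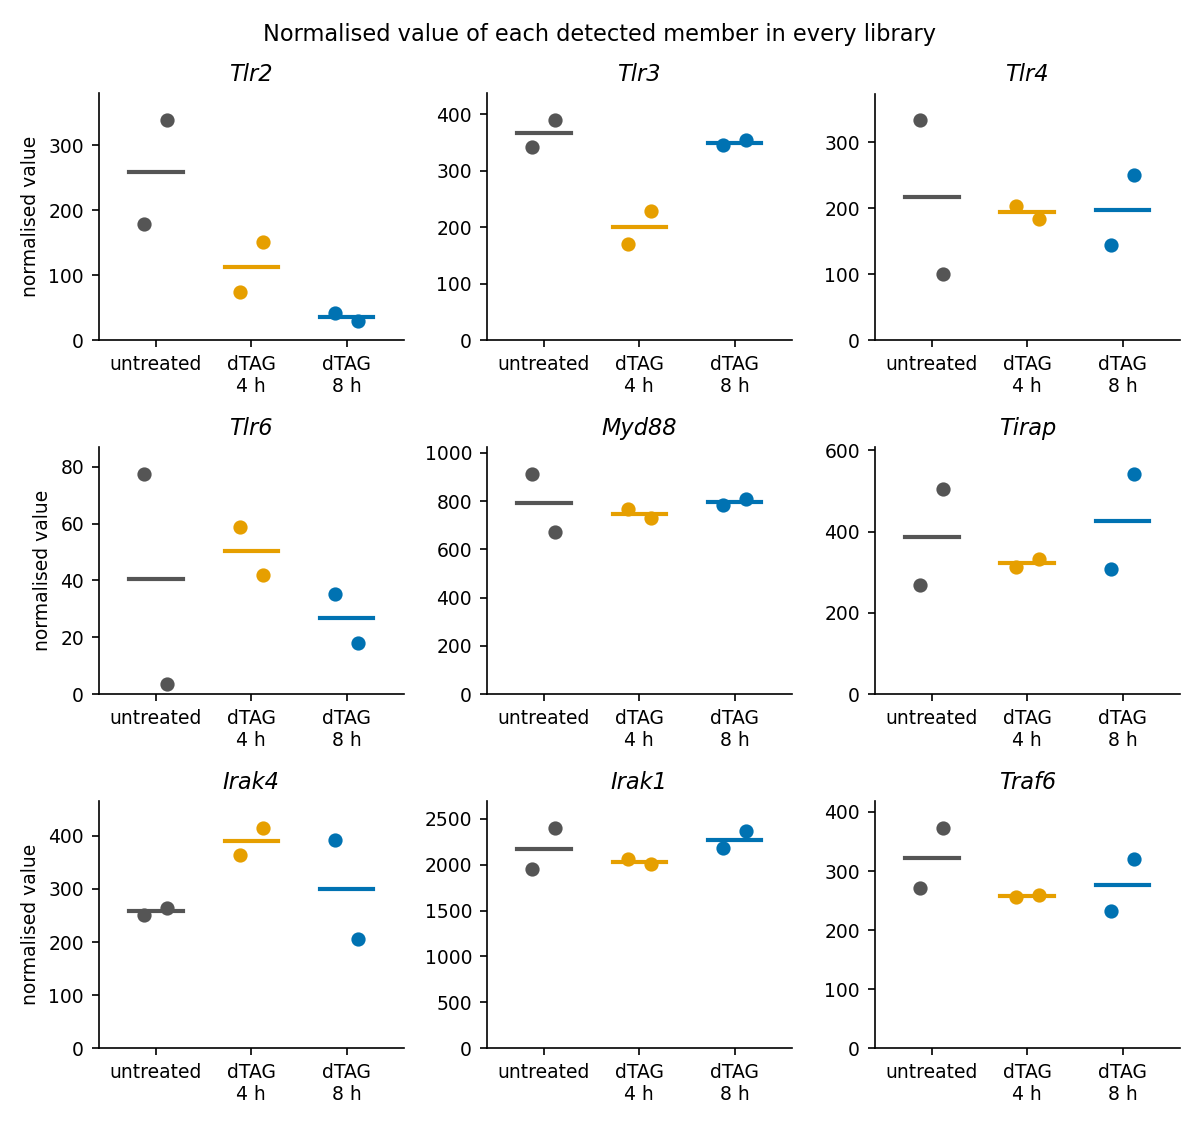
Normalised value (vertical axes, each from 0) of the 9 detected members in the 6 libraries, with untreated cells, dTAG 4 h and dTAG 8 h along each horizontal axis, points for libraries A and B and bars for group means. Tlr2 steps down from group to group to 41.9 and 29.8 at 8 h, Tlr3 is low at 4 h only, and in the other 7 panels the libraries at 8 h overlap the untreated ones.

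Tlr3, the receptor for double-stranded RNA, followed another course. Its values were 342 and 390 in untreated cells, 171 and 229 at 4 h, and 345 and 354 at 8 h. Both libraries at 4 h were thus below all 4 others, a pattern shared by 5.98% of tested genes, and the 8 h libraries lay between the untreated ones. The log2 difference was -0.88 at 4 h against untreated cells (SE 0.35, 95% interval -1.65 to -0.11) and 0.82 at 8 h against 4 h (SE 0.35, interval 0.05 to 1.58). Neither passed the test over all genes (limma, unadjusted p = 0.0283 and 0.0389, adjusted p = 0.961 and 0.962). At 8 h against untreated cells the difference was -0.06 (interval -0.83 to 0.7). The gene lies on chromosome 8 from 45395665 to 45411080, where the antisense gene Gm45542 overlaps it, and without a statement on strand use in counting, reads of these genes cannot be told apart.

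Tlr4, the lipopolysaccharide receptor, varied more between untreated libraries than between treatments. It had 334 and 101 in untreated cells, 204 and 184 at 4 h, and 145 and 250 at 8 h, with every treated library inside the untreated range. The log2 difference was 0.08 at 4 h (interval -1.22 to 1.37) and 0.05 at 8 h (interval -1.24 to 1.35), against untreated cells in each case. These intervals still include changes of over 2-fold either way, so Tlr4 was not resolved in these libraries.

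Tlr6, which pairs with TLR2 for diacylated lipopeptides, had few counts. The values were 77.5 and 3.73 in untreated cells, 59.0 and 41.8 at 4 h, and 35.3 and 18.1 at 8 h. Between the untreated libraries the level differed 20.8-fold, and library B rested on a whole number of 2, so all treated libraries fell between them. The log2 difference at 8 h was 0.45, with an interval of -2.66 to 3.56. Tlr1, the other partner of TLR2, was at 0 in all 6 libraries, and a count of 0 allows a normalised value of up to 1.9 to 5.9, depending on the library. This limit covers counting error only. Tlr1 and Tlr6 are neighbours on chromosome 5, 18467 bases apart, and share sequence: 15.4% of the 50-base windows of Tlr1 transcripts and 12.3% of those of Tlr6 also occur in another gene, mainly in each other, so their split is uncertain where reads fell there. No such window of Tlr2 transcripts occurred in another gene.

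Neither adaptor was called in any contrast. Myd88, which links all these receptors except TLR3 to the IRAK kinases, had 913 and 671 in untreated cells, 767 and 730 at 4 h, and 785 and 811 at 8 h. All 4 treated libraries lay between the untreated ones, and both at 8 h were above both at 4 h. The log2 difference was -0.07 at 4 h (interval -0.55 to 0.42) and 0.03 at 8 h (interval -0.46 to 0.52), against untreated cells, and 0.09 at 8 h against 4 h (interval -0.4 to 0.58). Tirap, the bridge between TLR2 or TLR4 and MyD88, had 269 and 505 in untreated cells, 314 and 333 at 4 h, and 308 and 542 at 8 h. Its untreated libraries differed 1.88-fold, and the log2 difference at 8 h was 0.15 (interval -0.72 to 1.02). Both adaptor genes overlap others, Myd88 with Acaa1a and Slc22a14, and Tirap with Srpr and the antisense Gm39318.

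The kinases differed in how well they were measured. Irak1, which is phosphorylated by IRAK4 and then engages TRAF6, had the smallest standard error of the members (0.14), with 1947 and 2400 in untreated cells, 2064 and 2002 at 4 h, and 2178 and 2363 at 8 h. Its log2 difference was -0.09 at 4 h (interval -0.41 to 0.23) and 0.07 at 8 h (interval -0.25 to 0.39), against untreated cells. Irak4, the first kinase of the complex, had 251 and 265 in untreated cells, 364 and 415 at 4 h, and 393 and 205 at 8 h. Both 4 h libraries were above both untreated ones, by 0.59 on the log2 scale (SE 0.39, interval -0.26 to 1.44, limma adjusted p = 0.961), whereas the 8 h libraries lay on either side of the untreated pair (0.14, interval -0.71 to 0.99). Irak4 overlaps Twf1 on the other strand.

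Traf6, the ligase that passes the signal on from the IRAK complex, had 272 and 373 in untreated cells, 256 and 260 at 4 h, and 232 and 320 at 8 h. Both 4 h libraries were just below the lower untreated one, and the 8 h libraries overlapped the untreated range. The log2 difference was -0.31 at 4 h (interval -1.12 to 0.51) and -0.22 at 8 h (interval -1.03 to 0.59).

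**Figure D2:**
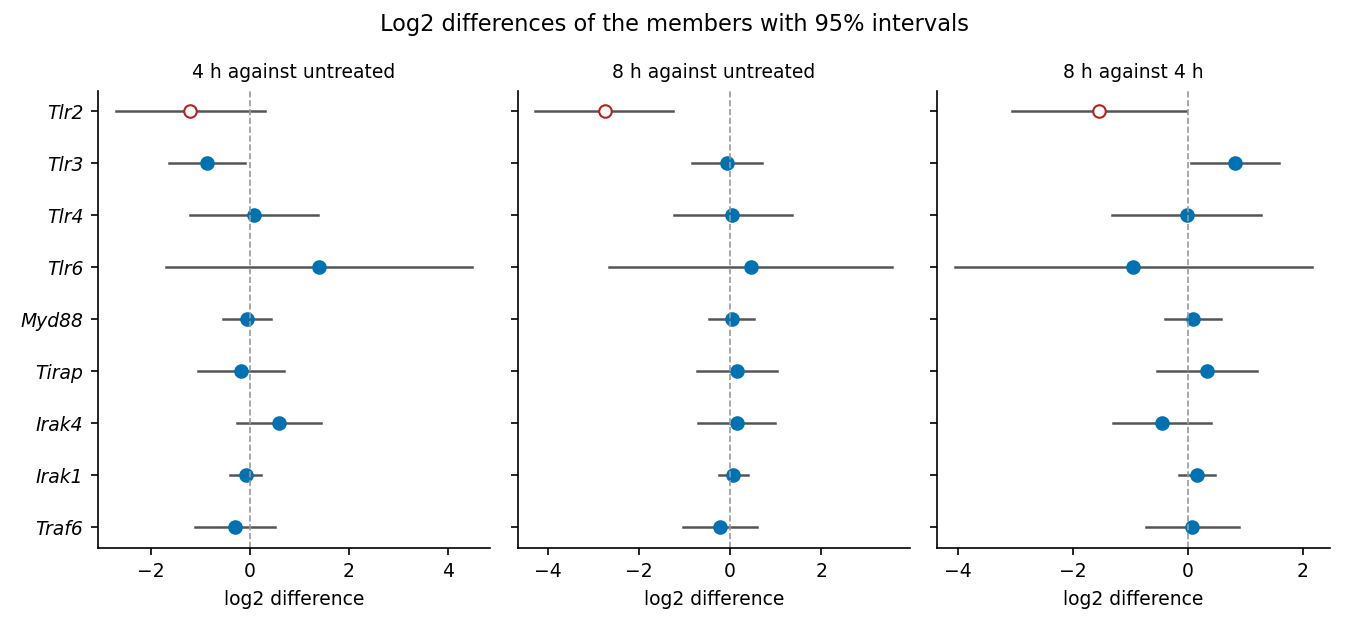
Log2 difference (horizontal axes) of the 9 detected members for 4 h against untreated, 8 h against untreated and 8 h against 4 h, with 95% intervals from limma as lines. The open red symbol is Tlr2, which was chosen by the 8 h contrast (-2.76). Its lines are therefore no test in any panel, also where they leave out 0. The filled symbols are the other members. Of these, Tlr3 alone has an interval that leaves out 0, at 4 h against untreated and at 8 h against 4 h.

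Counted over the 8 tested members without Tlr2, 0 were called in any contrast (limma, adjusted p 0.961 to 1.0), beside 0.0% of all genes. At an unadjusted p below 0.05 there was 1 member at 4 h, 0 at 8 h and 1 between 8 h and 4 h, in both cases Tlr3, beside 4.41%, 5.09% and 4.45% of all tested genes. At 4 h against untreated cells, 1 member was higher in both libraries (Irak4), where 16.1% of all genes were, and 2 were lower in both (Tlr3 and Traf6), where 16.0% were. At 8 h against untreated cells, 0 of the 8 were free of overlap, against 17.3% of all genes higher and 16.4% lower. Between 8 h and 4 h, 3 members were higher (Tlr3, Myd88 and Irak1), where 16.9% of genes were, and 1 was lower (Tlr6), where 16.4% were. The median log2 difference of the 8 members was -0.08 at 4 h and 0.06 at 8 h, beside -0.001 and 0.005 over all tested genes. With 8 members these counts are small, and their difference from the background was not tested.

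**Figure D3:**
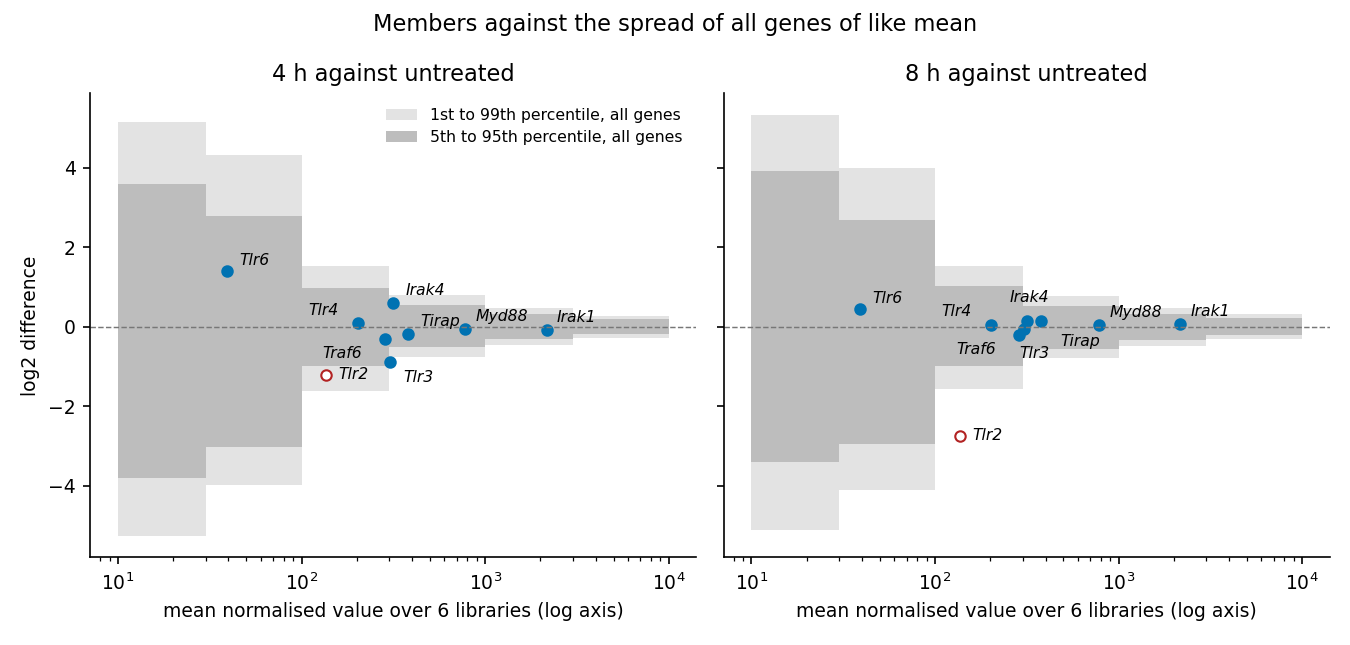
Log2 difference against untreated cells (vertical axis) by mean normalised value over the 6 libraries (horizontal log axis) at 4 h and 8 h, with bands for the percentiles of all tested genes in steps of the mean. The bands narrow as the mean rises, and the open symbol is Tlr2, whose place at 8 h (-2.76) is what it was chosen by and says nothing further.

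How far a gene strayed depended on its level. At 8 h the log2 difference ran, from the 1st to the 99th percentile, between -4.11 and 4.0 for genes with a mean of 30 to 100, -1.58 and 1.53 for those of 100 to 300, and -0.48 and 0.48 for those of 1000 to 3000. Tlr6 belongs to the first range and was well inside it, and Irak1 belongs to the last and was inside it too. Tlr3, with a mean of 305, stands at a border: at 4 h the 1st percentile was -1.62 for means of 100 to 300 and -0.77 for means of 300 to 1000, and its -0.88 falls between them.

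Among the genes most like Tlr2 over the 6 libraries, out of 9842 with a mean of at least 100, were Hyal1 (Pearson r = 0.985), Slc25a38 (0.985), Cdc16 (0.981) and Adam9 (0.98). They were close to Tlr2 in shape but not in size. Hyal1, a lysosomal hyaluronidase, had 227 and 272 in untreated cells, 138 and 224 at 4 h, and 111 and 82.5 at 8 h. Adam9, a membrane-bound metalloproteinase, had 7229 and 7437 in untreated cells, 6525 and 7168 at 4 h, and 6006 and 5977 at 8 h. With 6 points and 9842 genes, these correlations describe the libraries, which share depth and scaling. No other member was among them, and r with Tlr2 ran from -0.35 for Myd88 to 0.41 for Traf6. Within 250 kb on either side of Tlr2, 9 genes are annotated and 3 were tested (Gm26771, Mnd1 and Tmem131l). Their log2 differences against untreated cells were 0.28 to 2.97 at 4 h and -2.16 to 2.63 at 8 h, with 0 called. Their levels, on which the width of such differences depends, are not given here.

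The wider pathway was read from 7 lists of 86 genes, of which 72 were tested. In these lists 0 genes were called at 4 h, at 8 h or between them, and at an unadjusted p below 0.05 there were 1, 4 and 1 genes of the 72, beside 4.41%, 5.09% and 4.45% of all tested genes. The median log2 difference was 0.04 at 4 h and -0.01 at 8 h, and at 8 h 36 genes had a higher and 36 a lower value than in untreated cells. Among the other receptors, the Toll-like receptors Tlr8, Tlr9, Tlr11 and Tlr12 were at 0 throughout, and Il1r1, the interleukin-1 receptor that also signals through MyD88, had 560 and 832 at 8 h, against 1423 and 828 in untreated cells (log2 difference -0.67, SE 0.28, adjusted p = 0.901). The groups overlapped, at 832 and 828.

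Below TRAF6, 18 of 19 genes were tested, with a median log2 difference of 0.04 at 8 h. Irak2, a kinase that can stand in for IRAK1, had 1037 and 927 at 8 h, against 614 and 686 in untreated cells (0.59, SE 0.2, adjusted p = 0.901), without overlap. Peli3, a Pellino ubiquitin ligase that modifies IRAK1, had 135 and 218 at 8 h, against 13.1 and 136 in untreated cells (1.97, SE 0.93, adjusted p = 0.901), with untreated library A far below the 5 others. Of the 6 NF-kB and IRF factors, Rel had 242 and 168 at 8 h, against 117 and 162 in untreated cells (0.55, SE 0.48, adjusted p = 0.933), and Relb had 96.0 and 181 at 8 h, against 229 and 283 in untreated cells (-0.95, SE 0.49, adjusted p = 0.901). Both are subunits of NF-kB, and their values moved in opposite directions without passing the test.

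The genes that TLR2 signalling is known to induce were 15 tested of 19. At 8 h 4 had higher and 11 lower values, with a median log2 difference of -0.17, beside 0.005 over all tested genes. At 4 h 7 had higher and 8 lower values, with a median of -0.03. Neither split was tested. Lcn2, an iron-sequestering acute-phase protein, had 110 and 85.6 at 8 h, against 101 and 276 in untreated cells (-0.78, SE 0.75, adjusted p = 0.933), with overlap. The adjusted p-values of this list at 8 h were no lower than 0.933. The co-receptors, the TRIF arm and the inhibitors had medians of 0.15, 0.15 and -0.04 at 8 h, with 0 called in each.

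**Figure D4:**
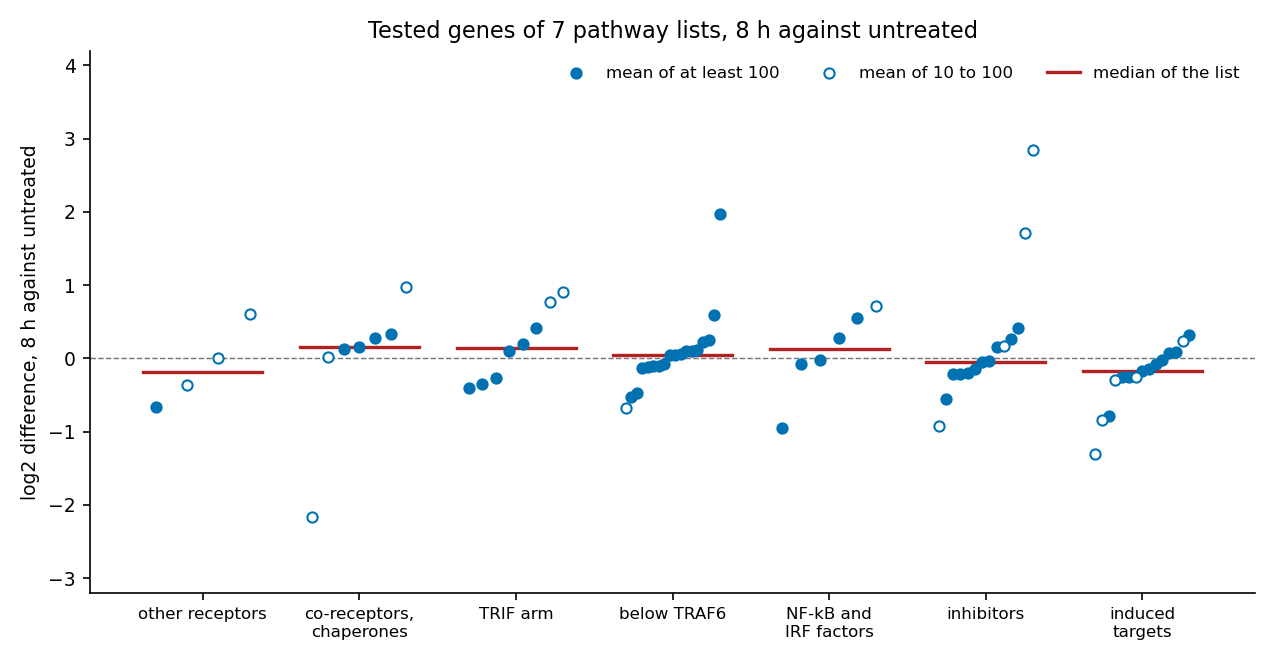
Log2 difference at 8 h against untreated cells (vertical axis) of the 72 tested genes in 7 pathway lists (horizontal axis), each point a gene and each red bar the median of its list. Filled points have a mean of at least 100 and open points a mean of 10 to 100; the medians lie between -0.18 and 0.15, and the points farthest from 0 are mostly open ones.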

How the data were processed

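Nascent RNA of 6 samples was labelled, captured with Click-iT chemistry and sequenced. According to the study's methods the authors trimmed reads with Trim Galore, aligned them with STAR, counted genes with featureCounts (mm10), scaled counts with ERCC spike-in RNA and compared groups with DESeq2. The submitters' processing notes also name BWA, SAMtools, MACS2 and deepTools, and no versions are given in the sources used here. Library kits differ between the labels (stranded total RNA) and the methods (3′ mRNA), which was not settled, so values are not per length and do not rank genes by level.

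The deposited signal values average scaled numbers, each divided by its library's size factor, across the 4 libraries of 1 comparison. The authors' own fold changes, errors, p-values and q-values stand beside it and were not used, nor were their lists of called genes. There were 0 columns for a single sample.

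The number of each library was recovered from the 15 significant digits of the means. Low means were sums of whole multiples of 4 steps in 490 of 490 distinct values at 4 h and 502 of 502 at 8 h. Lattice reduction (sympy 1.14.0) solved both tables together, within 1.5 units of the last digit. The pair of libraries that both tables share was taken as untreated and the others as the time their table is named for. That pair had equal numbers in 2512 of 2512 low genes, against 1319 for the next best pair. Of 23783 genes with a mean above 0, 23592 had 1 solution and 191, none with a mean below 11780, had more than 1 and were left out. The genes kept hold 63.0% of the summed means. Some libraries' numbers had gaps, as scaling by 1.054 to 1.559 before rounding leaves. At means of 100 to 1000, 100.0% of the numbers were attainable ones, where 64.2% to 94.9% would be if any number could occur. The steps were checked on simulated data.

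Values were divided by median-of-ratios size factors, which came within 0.111% of the deposited ones. Such scaling sets the typical gene to no change, so that a shift of all genes alike would not be seen. Genes with a mean of at least 10 (15110) were tested with limma 3.58.1 (R 4.3.3; lmFit and eBayes with a mean-variance trend, two-sided) on log2(value + 1), all 6 libraries in 1 fit, with Benjamini-Hochberg adjustment and calls at an adjusted p below 0.05. A fold change on this scale understates that of low genes. The upstream sequences and their build come from RefSeq, with 9 of 10 members matched.

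Named were all 10 members, pathway genes that were called or among the 3 largest and 3 smallest differences at 8 h with a mean of at least 100, and the 5 genes with the highest correlation with Tlr2, of which 1 is not reported here. The Toll-like receptors at 0 and the markers and neighbours given were named outside this rule, after their values were seen. The members and lists were chosen with earlier results of these data known. Alternatives were other pseudocounts, filters and scalings, fits without the trend or with only 4 libraries, and leaving out each library.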

Additional observations from a re-analysis of the deposited data

How the results depend on the processing

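Under other pseudocounts, filters and scalings, and with only the 4 libraries of a comparison, each contrast again had 0 calls. The lowest adjusted p of the main fit was 0.901 (limma, 8 h against untreated), far from the threshold. These 0 calls are therefore no evidence that genes did not change. Without the mean-variance trend limma called 49 genes at 4 h against untreated, 44 at 8 h against untreated and 34 at 8 h against 4 h, none with a mean above 51.8, and 0 of them were members or pathway genes. The cause was not tested. No member passed the threshold under any alternative. With 1 library left out, 22 of 162 log2 differences of members changed sign. Some of the 162 leave out a library outside the contrast and could hardly change. Under the other settings 0 of 213 changed sign. A change of filter or trend leaves a log2 difference as it was, and a fit with only 4 libraries nearly so. That 0 therefore says little about robustness. At 4 h against untreated the ranges with 1 library left out were -0.78 to 0.94 for Tlr4, -0.63 to 3.44 for Tlr6, -0.29 to 0.16 for Myd88, -0.64 to 0.26 for Tirap and -0.24 to 0.06 for Irak1. At 8 h against untreated they were -0.16 to 0.04 for Tlr3, -0.8 to 0.91 for Tlr4, -1.58 to 2.49 for Tlr6, -0.19 to 0.25 for Myd88, -0.3 to 0.6 for Tirap, -0.08 to 0.22 for Irak1, -0.33 to 0.61 for Irak4 and -0.45 to 0.01 for Traf6. At 8 h against 4 h they were -0.41 to 0.37 for Tlr4, -0.07 to 0.74 for Tirap, -0.92 to 0.02 for Irak4 and -0.15 to 0.31 for Traf6. The difference of Tlr2 was -3.23 to -2.31 at 8 h and -1.72 to -0.7 at 4 h against untreated. At 8 h against 4 h it was -2.06 to -1.04. Its sign could not change when 1 library was left out, because its groups did not overlap and it was chosen by its decrease. That sign is therefore no sign of robustness. No paired analysis was possible because the recovered libraries carry no replicate number. With 2 libraries a group, the spread between libraries limits the members with low means most.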
